A study of Homo sapiens with 2 samples.

Results

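The miR-29 family was examined in K562/ADM and in K562, with 1 small RNA library of each line. The family was taken as every name in the deposited table that is miR-29a, miR-29b or miR-29c once the species prefix, the asterisk, the arm suffix and the copy number are removed, which gave 7 of 934 names. K562 is a human chronic myelogenous leukemia cell line that was sequenced without drug. K562/ADM is a stable variant of it, selected with rising doses of adriamycin (ADM), an anthracycline that damages DNA, and kept in 1000 ng/mL of the drug. The labels name no clone and no second culture of either line, so that drug, selection and chance differences between libraries cannot be told apart. Of the 7 names, 3 are guide arms, the strand of a hairpin that is usually loaded into the silencing complex, and 4 carry an asterisk and are star arms, the opposite strand.

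MiRs guide the silencing complex to messenger RNAs that pair with their seed, a short stretch near the 5' end. The miR-29 family is known for repressing the DNA methyltransferases DNMT3A and DNMT3B, the survival protein MCL1 of the BCL2 family, and many collagen genes. In human leukemia and other cancers its members have been described as often low and as lowering DNA methylation when put back. None of these targets was measured in the files used here.

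The family is made from 4 hairpins in 2 pairs, with positions and sequences from RefSeq on GRCh38.p14. MIR29A (130876747 to 130876810) and MIR29B1 (130877459 to 130877539) lie on the minus strand of chromosome 7, 648 bases apart. MIR29C (207801852 to 207801939) and MIR29B2 (207802443 to 207802523) lie on the minus strand of chromosome 1, 503 bases apart, within the lncRNA gene MIR29B2CHG. The 3 guide arms are shown because they share 1 seed, given in capitals (bases 2 to 8), and differ only after it.
miR-29a: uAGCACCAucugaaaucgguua
miR-29b: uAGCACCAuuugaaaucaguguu
miR-29c: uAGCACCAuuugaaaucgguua

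With positions counted from the 5' end, miR-29a and miR-29c differ at 1 of 22 bases, C10U, where the base of miR-29a is given first. From miR-29c to miR-29b there are 3 changes in the same 22 bases, G18A, U21G and A22U, and miR-29b is 1 base longer. Bases 9 to 11 are UCU in miR-29a and UUU in miR-29b and miR-29c, and the run of uracils there has been described in human cells as needed for the fast turnover of miR-29b. The last 6 bases of miR-29b, AGUGUU, have been described in human cells as directing it to the nucleus. Among 2370 mature miRs in the RefSeq table, AGCACCA stood at bases 2 to 8 in 3, the 3 guide arms, and AGUGUU closed 2 of 2370, miR-29b and miR-519e-3p. The near identity of the guide arms bears on every count below: a read with a wrong base at position 10 could pass between miR-29a and miR-29c, and the sources used here do not state how many mismatches the mapping allowed.

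The 4 star arms are shown because, unlike the guide arms, no 2 of them share a seed (capitals, bases 2 to 8), and because both star arms of miR-29b, unlike its guide arm, name their hairpin.
miR-29a*: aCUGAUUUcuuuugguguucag
miR-29b-1*: gCUGGUUUcauauggugguuuaga
miR-29b-2*: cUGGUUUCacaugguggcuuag
miR-29c*: uGACCGAUuucuccugguguuc

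MiR-29b-2* begins 1 base later than miR-29b-1* in the aligned stretch, and over the 22 bases they share the changes from miR-29b-1* to miR-29b-2* are U11C and U19C. The guide arm of miR-29b is identical in MIR29B1 and MIR29B2, as the hairpins show, in which both arms are in capitals and the 5' arm is the star arm.
MIR29B1: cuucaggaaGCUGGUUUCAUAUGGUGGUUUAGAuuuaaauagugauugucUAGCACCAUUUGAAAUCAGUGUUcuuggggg
MIR29B2: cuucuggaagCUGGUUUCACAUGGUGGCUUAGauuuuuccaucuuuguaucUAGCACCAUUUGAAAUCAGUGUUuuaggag

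The reads behind the libraries came to 6895193 in K562/ADM and 7677738 in K562, summed over all names. Blood cell miRs listed as markers of the line (miR-142-3p, miR-223, miR-144, miR-451 and miR-486-5p) were all present, at 79052 RPM (reads per 1000000 miR reads) in K562/ADM and 52771 RPM in K562 when summed. MiR-142-3p carried the higher sum, with 73598 RPM in K562/ADM and 45807 RPM in K562, while miR-223, miR-451 and miR-486-5p had fewer RPM in K562/ADM. Of 11 miRs typical of other cell types, 7 had under 50 reads over both libraries. The list summed to 1208 RPM in K562/ADM and 549 RPM in K562. Most of this was miR-145, with 901 RPM in K562/ADM and 397 RPM in K562. MiR-143 had 185 RPM in K562/ADM and 26.6 RPM in K562, and miR-141 had 108 RPM and 116 RPM. MiR-367 was not listed, miR-133a, miR-206 and miR-302a had 0 reads in K562, and the part of other cells in the results was not tested.

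MiR-29b was the main member in both lines. It had 3453 reads in K562/ADM and 3512 in K562, which is 501 RPM (95% interval 484 to 518) and 457 RPM (442 to 473). MiR-29a had 645 reads in K562/ADM and 915 in K562, or 93.5 RPM (86.5 to 101) and 119 RPM (112 to 127). MiR-29c was the least abundant guide arm, with 279 reads in K562/ADM and 154 in K562, or 40.5 RPM (35.9 to 45.5) and 20.1 RPM (17.0 to 23.5). The order miR-29b, miR-29a, miR-29c was the same in both libraries, with no overlap of intervals between neighbours. All intervals here are exact (Clopper-Pearson) and cover counting error only, since there is no replicate of either line, and levels are set side by side without a correction for length because the mature miRs are 22 to 24 bases long.

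Every star arm was below its guide arm. MiR-29c*, from chromosome 1, was the most abundant of them, with 47 reads in K562/ADM and 30 in K562. MiR-29b-2*, from the same locus, had 20 reads in K562/ADM and 5 in K562. MiR-29a*, from chromosome 7, had 17 reads in K562/ADM and 18 in K562. MiR-29b-1*, from that locus too, had 3 reads in K562/ADM and 2 in K562, close to the floor of 3 reads that a count of 0 would allow. The authors state that they left out sequences seen once, yet names with 1 recovered read are present. How these remained, and the effect of the filter on such low counts, was not tested. In K562/ADM the intervals of miR-29b-2* (1.77 to 4.48 RPM) and miR-29a* (1.44 to 3.95) overlapped, and their order is not fixed. In K562 the interval of miR-29a* (1.39 to 3.71) overlapped those of miR-29c* (2.64 to 5.58) and miR-29b-2* (0.211 to 1.52), and that of miR-29b-2* overlapped the interval of miR-29b-1* (0.0316 to 0.941).

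**Figure D1:**
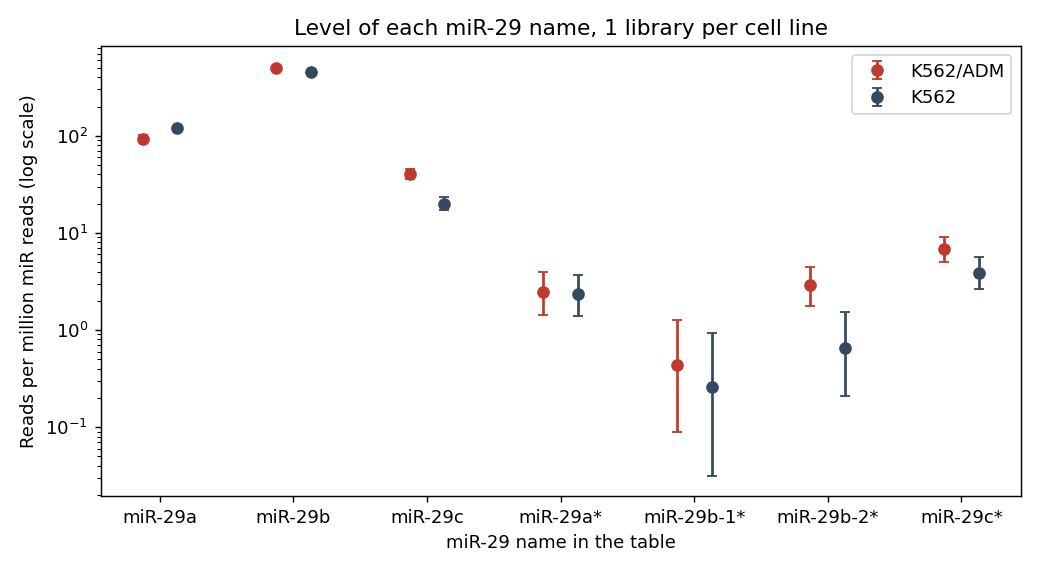
RPM (y axis, log scale) of each of the 7 miR-29 names (x axis) in K562/ADM (red, left) and K562 (dark, right), 1 library each, with exact 95% counting intervals as bars. MiR-29b stands highest in both libraries at 501 and 457 RPM, and the star arms lie below 10 RPM.

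Whether the family differed between the lines was asked first of its sum. All 7 names together had 4464 reads in K562/ADM and 4636 in K562, which was 0.0647% and 0.0604% of the miR reads. Scaled by the median of ratios, K562/ADM stood at 1.18 times K562 (95% interval 1.13 to 1.23). The interval excluded 1, but the ratio was below the 2-fold limit used for a call, which asks for a ratio of at least 2-fold and an interval that excludes 1. The 4 star arms summed to 87 reads in K562/ADM and 55 in K562, a ratio of 1.94 (1.37 to 2.77). Without miR-29b, the other 6 names had a ratio of 1.10 (1.01 to 1.20).

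The members did not move alike. MiR-29c had a ratio of 2.22 (95% interval 1.82 to 2.72) and was called higher in K562/ADM. MiR-29b-2* had a ratio of 4.90 (1.78 to 16.7) and was also called higher, from 20 reads against 5. MiR-29c* had a ratio of 1.92 (1.19 to 3.14), just under 2-fold, with an interval above 1. These 3 names all come from the hairpin pair on chromosome 1.

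The names that come from chromosome 7 alone gave smaller ratios or wide intervals. MiR-29a had a ratio of 0.863 (95% interval 0.779 to 0.956), the only one of the 7 below 1, though not under upper-quartile scaling. MiR-29a* had a ratio of 1.16 (0.560 to 2.38) and miR-29b-1* a ratio of 1.84 (0.210 to 22.0) from 5 reads in all. Both intervals hold 1, and no difference was detectable at this depth. MiR-29b, whose reads come from either locus, had a ratio of 1.20 (1.15 to 1.26).

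In all, 2 of the 7 names were called higher and 0 lower. Of all names in the table, 11.1% were called higher and 15.6% lower, and the shares were 16.1% and 23.3% of those with a summed depth of at least 10 reads, which 6 of the 7 reach. With so few names, nothing particular to the family is read from 2 of 7. An interval that excluded 1 was found for 5 of the 7 names, 4 above 1 and 1 below, against 43.8% of all names in either direction. That share is over all 934 names, of which only 604 have at least 10 reads. Intervals are wide at low depth, and the share at the depth of the family was not computed. Nothing particular to the family is therefore read from 5 of 7. The 6 names with at least 10 reads had a median log2 ratio of 0.60, beside -0.08 over all names of that depth.

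The scaling sets where these ratios stand. Against the median of ratios, every log2 ratio shifted by -0.14 with total counts, -0.12 with miR-425, -0.10 without 14q32 and 0.74 with the upper quartile. MiR-29a was below 1 with the median of ratios, total counts, TMM, miR-425 and the median of ratios without 14q32, and above 1 with the upper quartile, where its log2 ratio was 0.53. MiR-29c and miR-29b-2* were called higher under all 6 scalings, and 0 of the 7 names were called lower under any of them.

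**Figure D2:**
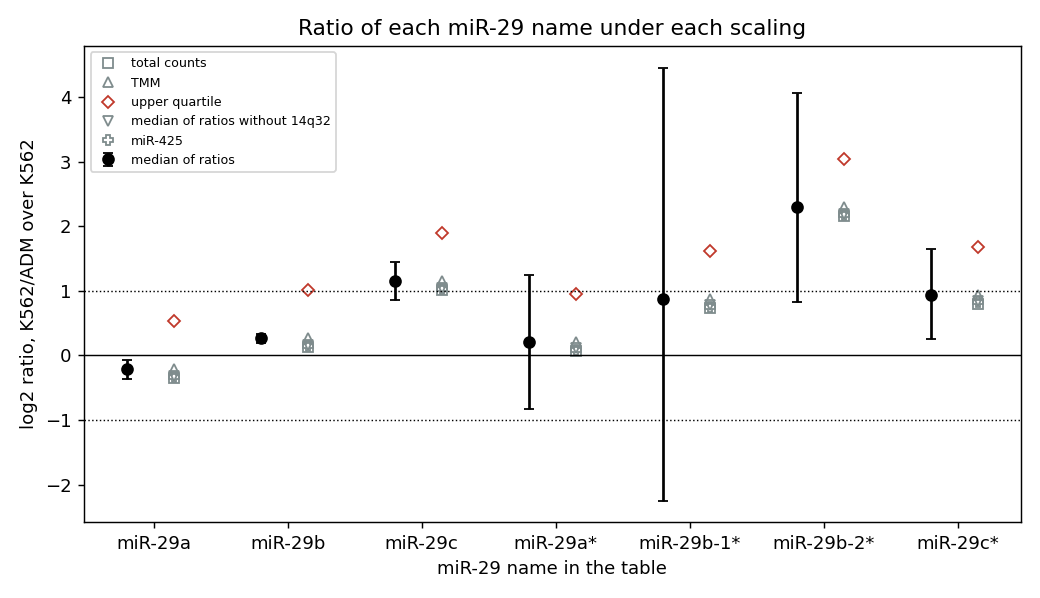
Log2 ratio, K562/ADM over K562, on the y axis for each miR-29 name on the x axis, with the median of ratios as black points with exact 95% counting intervals and the other 5 scalings as open symbols. Equality is drawn solid and 2-fold differences dotted. MiR-29c at 1.15 and miR-29b-2* at 2.29 lie above the upper dotted line, and miR-29a at -0.21 moves above 0 with the upper quartile only (red diamonds).

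The mix of the guide arms within a library does not depend on the scaling. MiR-29c took 6.37% of the guide-arm reads in K562/ADM (95% interval 5.67 to 7.14) and 3.36% in K562 (2.86 to 3.93). MiR-29a took 14.7% in K562/ADM (13.7 to 15.8) and 20.0% in K562 (18.8 to 21.2). MiR-29b took 78.9% in K562/ADM (77.7 to 80.1) and 76.7% in K562 (75.4 to 77.9). The share of miR-29c was therefore higher and that of miR-29a lower in K562/ADM beyond counting error, and the share of miR-29b was slightly higher, since its ratio stood at 1.14 times that of miR-29a and miR-29c summed (1.03 to 1.26).

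The guide arms were also set against each other in pairs. There were 2.31 reads of miR-29a for each read of miR-29c in K562/ADM and 5.94 in K562. The ratio of miR-29c therefore exceeded that of miR-29a by 2.57 times (exact conditional 95% interval 2.05 to 3.23), the widest gap among the guide arms. It exceeded that of miR-29b by 1.84 times (1.50 to 2.27), and the ratio of miR-29b exceeded that of miR-29a by 1.39 times (1.25 to 1.56). These intervals cover counting error, so they describe these libraries and carry no p-value.

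Since 1 base separates miR-29a from miR-29c, the pair was also summed. MiR-29c made up 30.2% of their joint reads in K562/ADM (95% interval 27.2 to 33.3) and 14.4% in K562 (12.4 to 16.7). Summed, miR-29a and miR-29c had a ratio 0.879 times that of miR-29b (0.795 to 0.973), whereas miR-29c alone stood at 1.84 times. An exchange of reads between the pair was not tested.

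**Figure D3:**
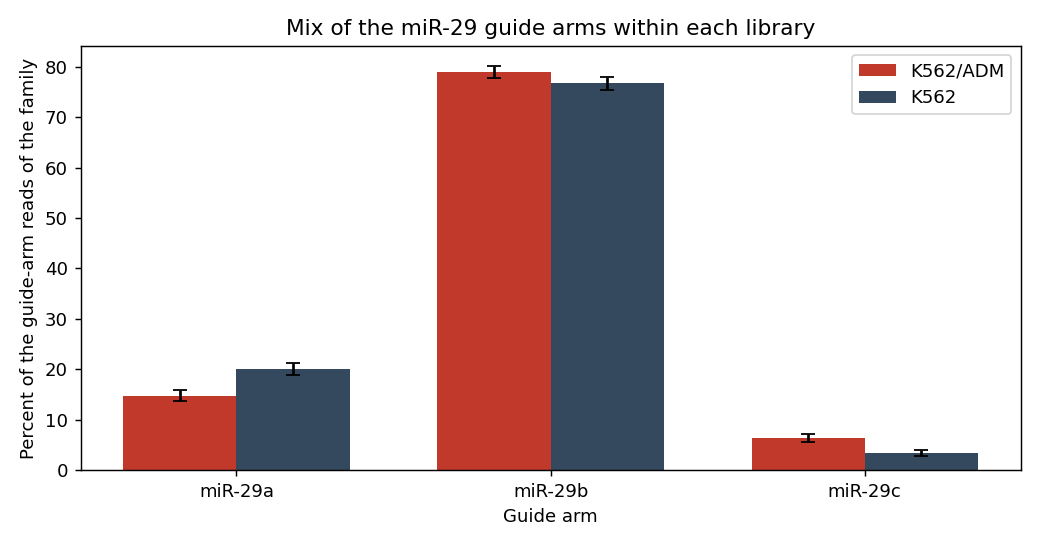
Percent of the guide-arm reads of the family (y axis, from 0) that belong to miR-29a, miR-29b and miR-29c in K562/ADM (red, left) and K562 (dark, right), with exact 95% counting intervals. MiR-29b holds 78.9% and 76.7%, miR-29a 14.7% and 20.0%, and miR-29c 6.37% and 3.36%.

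How unlike members of other families were to each other was taken as a yardstick. Among miRs that share a number and an arm suffix and differ by letter, which keeps miR-548 and miR-548-5p apart, 8 groups had at least 3 names without an asterisk and with at least 100 reads. The log2 ratios of the miR-29 guide arms ranged over 1.36, from miR-29a at -0.21 up to miR-29c at 1.15. The let-7 group, a large family of tumour suppressor miRs, ranged over 0.83 and the miR-30 group over 0.77, while the miR-181 group ranged over 3.91. The spread within miR-29 was thus inside that of other families. This is a description, since the groups differ in number of names and in depth.

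**Figure D4:**
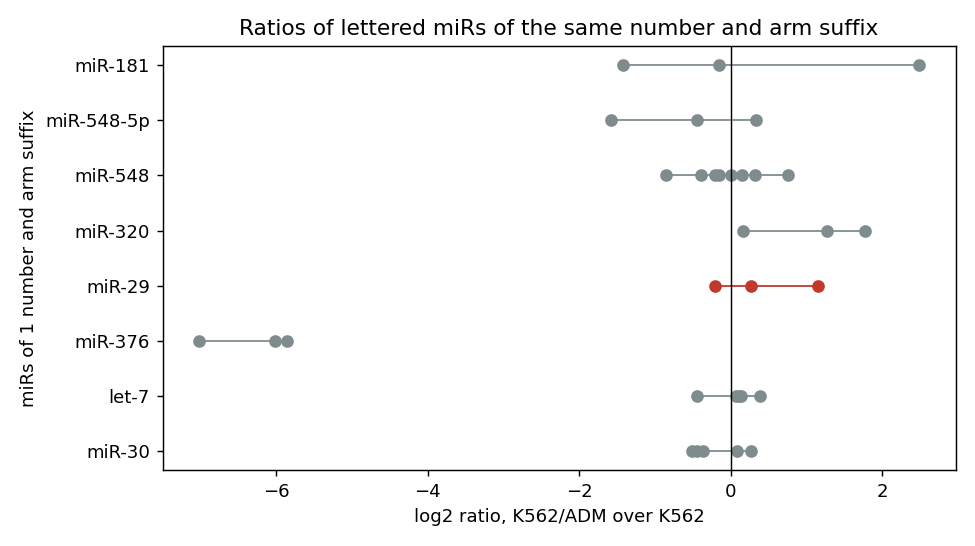
Log2 ratio, K562/ADM over K562, on the x axis of each name in the 8 groups of lettered miRs of 1 number and arm suffix (y axis), ordered by range with the widest at the top. Each point is a name, and the line joins the lowest and highest. The miR-29 points (red) span 1.36, more than the 0.83 of let-7 and less than the 3.91 of miR-181.

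The use of the arms differed between the paralogs, and for 2 of them no difference between the lines was detectable. The star arm took 14.4% of the reads of MIR29C in K562/ADM (95% interval 10.8 to 18.7) and 16.3% in K562 (11.3 to 22.5). For MIR29A it took 2.57% in K562/ADM (1.50 to 4.08) and 1.93% in K562 (1.15 to 3.03). The ratio of star to guide between the lines was 0.865 (0.512 to 1.48) for miR-29c and 1.34 (0.643 to 2.78) for miR-29a. Both intervals hold 1, and their widths do not show that the arm use was the same.

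For miR-29b the guide reads of its hairpins cannot be split, so both star arms were set against all of them. They took 0.662% of the reads in K562/ADM (95% interval 0.420 to 0.991) and 0.199% in K562 (0.0800 to 0.409), a ratio of star to guide of 3.34 (1.39 to 9.23). Because this value pools the hairpins, arm use within either of them was not measured, and a shift in their mix was not tested. Most of these star reads were miR-29b-2*, which stood at 4.07 times the ratio of miR-29b (1.48 to 13.9), from 20 and 5 reads. Whether miR-29b-2* moved more than miR-29b-1* was not detectable at this depth, since their ratios differed by 2.67 times with an interval of 0.171 to 29.8. Likewise miR-29c* against miR-29a* gave 1.66 (0.685 to 4.01).

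Other hairpins show where these arm shares stand. Among 76 hairpins outside the family with reads of both arms in both libraries and at least 100 reads in all, the median star-arm share was 2.63% in K562/ADM and 3.38% in K562. Their median ratio of star to guide was 0.811, with quartiles of 0.590 and 1.10. The value of miR-29b, 3.34, was above those of all 76, that of miR-29a was below those of 12 and that of miR-29c below those of 35. These ranks hold for the 76 only. Among hairpins left out, the ratios of the arms between the lines differed either way. They were 1.84 for mir-3676* beside 0.292 for miR-3676, and 0.143 for miR-92a-1* beside 0.513 for miR-92a. With 30 star reads in all behind it, the value of miR-29b has a lower limit of 1.39, which is inside the spread of the other hairpins.

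**Figure D5:**
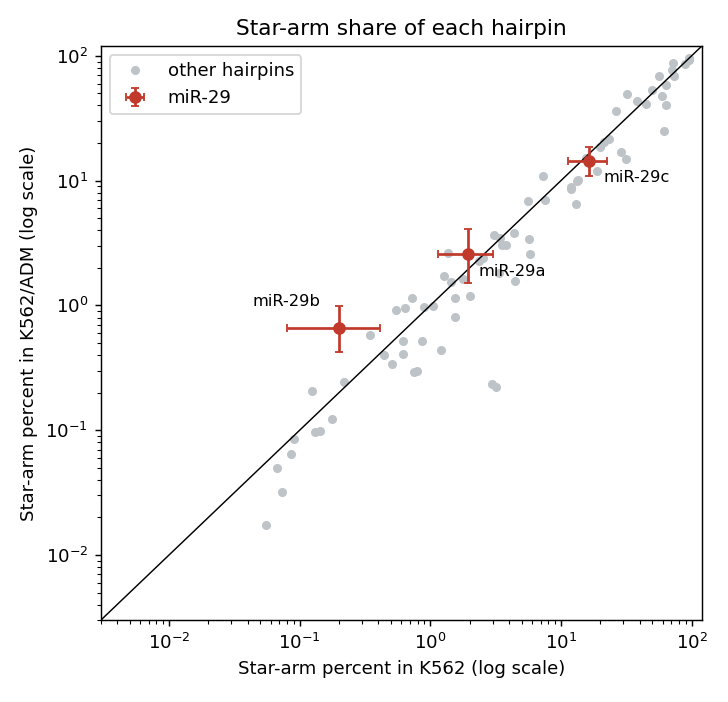
Star-arm percent of the reads of each hairpin plotted for K562 along x and K562/ADM along y, with logarithmic axes. Grey points are the 76 other hairpins whose star arm has the same name with an asterisk added. Red points are the miR-29 paralogs with exact 95% counting intervals, and the line marks equal shares. MiR-29b, at 0.199% and 0.662%, lies above the line, and the intervals of miR-29a and miR-29c cross it.

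Some other names had a ratio close to that of miR-29b. Of 268 other names without an asterisk and with at least 100 reads, 20 had a log2 ratio within 0.1 of its 0.27. The nearest were miR-30d with a ratio of 1.20 (95% interval 1.19 to 1.21), miR-374a with 1.21 (1.14 to 1.29) and miR-125a-5p with 1.17 (1.00 to 1.36). This likeness rests on 2 libraries only.

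MiRs described elsewhere as repressing DNA methyltransferases or MCL1 were read beside the family. Of the list of 12, 11 were in the table (miR-133b was not listed), and 3 were called higher, 0 lower and 8 in neither direction. The 11 had a median log2 ratio of 0.46, beside -0.08 over all names with at least 10 reads, of which 16.1% were called higher and 23.3% lower, and with so few names nothing particular to the list is read from this. MiR-143, described as a repressor of DNMT3A, had 1279 reads in K562/ADM and 204 in K562, a ratio of 7.68 (95% interval 6.62 to 8.94). MiR-152, described as a repressor of DNMT1, had 202 reads in K562/ADM and 107 in K562, a ratio of 2.31 (1.82 to 2.95). MiR-153, described as a repressor of MCL1, had 61 reads in K562/ADM and 14 in K562, a ratio of 5.34 (2.95 to 10.3).

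The other 8 names of the list were within 2-fold. MiR-101, with 91380 reads in K562/ADM and 81592 in K562, had a ratio of 1.37 (95% interval 1.36 to 1.38). MiR-148a had a ratio of 0.921 (0.873 to 0.971) and its relative miR-148b 0.721 (0.679 to 0.765). MiR-185 stood at 1.10 (1.08 to 1.13), miR-342-3p at 1.44 (1.27 to 1.64) and miR-125b at 1.89 (0.836 to 4.47). The lowest were miR-126 at 0.571 (0.561 to 0.582) and miR-193b at 0.507 (0.433 to 0.593). MiR-193b, described as a repressor of MCL1, was the only one near the lower limit, and it passed that limit under total counts, miR-425 and the median of ratios without 14q32.

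The RefSeq table was also searched for bases 3 to 9 of the guide arms at bases 2 to 8, the family's seed region moved by 1 base. A single miR carries them there, and a move in the other direction was not searched. MiR-767-5p has GCACCAU, bases 3 to 9 of the miR-29 guide arms, at its own bases 2 to 8 (capitals), and it comes from chromosome X. It was added for its sequence after its values had been seen.
miR-767-5p: uGCACCAUgguugucugagcaug

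MiR-767-5p had 99 reads in K562/ADM and 170 in K562, a ratio of 0.713 (95% interval 0.551 to 0.919), which was not called. Its level was thus between those of miR-29c and the star arms in K562/ADM, and in K562 it was close to that of miR-29c with 154 reads.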

How the data were processed

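Small RNA of K562/ADM and K562 was sequenced by the authors as 36-base reads, 1 library per line. By their account they left out sequences seen once, used Bowtie within miRanalyzer to map the others against miRBase 16, and scaled each library by a DESeq size factor. CASAVA 1.7.0 and hg18 are named in the submitters' processing notes. The deposited signal is therefore a normalized read count, and the table's fold, log2 and p-value columns, which hold the authors' own comparison, were not used. The smallest value above 0 of a column was taken as 1 read, and 100% of values were whole multiples of it within 0.001, which gave the reads.

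Libraries were scaled by the median of ratios over those of the 934 names that had reads in both libraries. Ratios and shares were given exact 95% intervals, and pairs of names the exact conditional interval of their odds ratio, beside the ratio of the reads. A call asked for a ratio of 2-fold or more with an interval that excludes 1. As each line has 1 library, no residual degrees of freedom were left and no p-value was computed. A count model such as that of edgeR was not fitted. The lists and members were chosen with earlier results of these data known. The names given in the text are all family names, the list of 12 repressors, the 3 names nearest miR-29b with at least 100 reads, and miRs with the seed. Examples of hairpins left out of the arm comparison were added after their values had been seen. Table names without a suffix were taken as the 3p arm and those with an asterisk as the 5p arm of RefSeq, and the sequences of miRBase 16 were not compared with these. The procedure was tested on simulated reads that hold counting error only, so this test does not cover variation between cultures or libraries. Alternatives tried were the scaling (upper quartile, TMM, total counts, miR-425, and without 14q32), read minimums, other call rules, 1 added to scaled values, and other sums of names. The scaling factors of TMM and upper quartile came from edgeR 4.0.16 in R 4.3.3. All else was computed in Python 3.11.15 with scipy 1.17.1, pandas 2.3.3 and numpy 2.4.6, and drawn with matplotlib 3.10.9.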

Additional observations from a re-analysis of the deposited data

How the results depend on the processing

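The ratio of the summed family stayed above 1 and below 2-fold under every alternative run, between 1.07 with total counts and 1.97 with the upper quartile. The count of miR-29 names called higher was 2, but 4 with the upper quartile, which adds miR-29b and miR-29c*, 1 with at least 50 reads, which leaves out miR-29b-2*, and 0 when the whole interval had to pass 2-fold. The log2 ratio of miR-29a was 0.53 with the upper quartile, on the other side of 0. With miR-29a and miR-29c summed, the ratio against miR-29b was 0.879 in place of 1.84 for miR-29c alone, since the sum is mostly miR-29a. Of the list of repressors of DNA methyltransferases and MCL1, 6 were called higher and the median log2 ratio was 1.20 with the upper quartile, under which 33.9% of all names with at least 10 reads were called higher and their median was 0.66, and 1 (miR-193b) was called lower with total counts, with miR-425 and without 14q32, under which 25.3% to 25.7% of all names of that depth were. The upper quartile raises every ratio alike, and the cause of its distance from the other scalings was not tested. The other 75 values, 36 of them for sums, pairs and counts, kept their direction, and those that carry a call kept it. Among them miR-29b-1* passed 2-fold with the upper quartile, at a log2 ratio of 1.62 (interval -1.51 to 5.20), but was not called. Leaving out a replicate was not possible with 1 library per line. No paired analysis was possible because each line has 1 library. Depth limits the star arms most, with 87 reads over all 4 in K562/ADM and 55 in K562.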

Other observations

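The names whose hairpin pair is known were also summed by locus, a sum formed after their values had been seen and thus a description. Of the reads that name their locus, the chromosome 1 pair (miR-29c, miR-29c* and miR-29b-2*) gave 346 of 1011 in K562/ADM, 34.2% (95% interval 31.3 to 37.2), and 189 of 1124 in K562, 16.8% (14.7 to 19.1). The chromosome 7 pair (miR-29a, miR-29a* and miR-29b-1*) gave the other 665 reads in K562/ADM and 935 in K562. Most of these reads were miR-29c and miR-29a, with 279 and 645 in K562/ADM and 154 and 915 in K562. These names differ at 1 base, and an exchange of reads between them was not tested. The star arms alone gave no detectable contrast, at 1.66 (0.685 to 4.01) for miR-29c* against miR-29a* and 2.67 (0.171 to 29.8) for miR-29b-2* against miR-29b-1*. The guide reads of miR-29b, which outnumber all of these together in both libraries, carry no mark of their locus, so that the share of each pair in the whole family was not measured.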
